A study of Mus musculus with 16 samples.

Results

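Cholesterol synthesis, uptake, storage and efflux were followed through 31 genes in fat of lean and obese mice, taken under the skin (subcutaneous adipose tissue, SAT) and from the abdomen (visceral adipose tissue, VAT). The genes were chosen by symbol, and every row of the deposited table whose RefSeq accession maps to one of these symbols was taken, which gave 109 of 130343 transcript rows. Of the 31 genes, 25 act in synthesis, its control, intracellular transport or uptake, 5 act in efflux or its control by the liver X receptors (LXRs), and 1 (Soat1) esterifies cholesterol for storage. Poly(A) RNA was sequenced from inguinal SAT, with the left and right depots of a mouse combined, and from mesenteric VAT, both with visible vessels removed. All 8 mice were male wild-type (WT) C57BL/6J, and each gave 1 SAT and 1 VAT library, so that the 16 libraries form 4 groups of 4. From 10 weeks of age and for 12 to 14 months, the obese mice ate a high-fat Western diet that drew 42% of its energy from fat and held 0.2% cholesterol, and the lean mice ate a normal laboratory diet. The obese groups therefore differ from the lean groups in the dietary shares of fat, protein and carbohydrate, in dietary cholesterol and in body mass together, and these cannot be told apart. Total counts per library lay between 4604460 and 16614407 in SAT and between 1256082 and 15802634 in VAT. The VAT libraries of lean replicate 1 and obese replicate 1 (1256082 and 2247737 counts) were the shallowest and carry the largest counting error.

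Cells make cholesterol from acetyl-CoA, first along the mevalonate pathway to farnesyl pyrophosphate and then through squalene and lanosterol to the finished sterol. The transcription factor SREBP2 (gene Srebf2) drives the genes of this route when membrane sterol is low, while Insig1, itself a target of SREBP2, holds SREBP2 and its escort protein Scap in the endoplasmic reticulum when sterol is plentiful. Oxysterols, which build up with cholesterol, activate the LXRs (Nr1h2 and Nr1h3), and these switch on the exporters Abca1 and Abcg1 and the ubiquitin ligase Mylip, which removes lipoprotein receptors. Adipocytes hold a large pool of free cholesterol on the surface of their lipid droplets, and macrophages in adipose tissue take up and export cholesterol as well.

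Each gene is described by its leading row, the transcript row with the highest mean CPM (counts scaled to the library total) over the 16 libraries. The leading row passed the filter (3 or more of 16 libraries with a CPM over 1) for 21 of the 31 genes, 17 of synthesis and uptake, 3 of efflux, and Soat1. The other 10 genes (Mvk, Mvd, Ggps1, Lss, Lbr, Msmo1, Dhcr7, Scap, Nr1h2 and Mylip) were not tested. Mylip had 0 counts in all 16 libraries, no leading row of the other 9 held more than 6 counts in a library, and Msmo1, a sterol demethylating enzyme with a single row in the table, had at most 3. How reads that fit several transcripts were counted is not stated, so these low counts are not read as low expression. Transcript lengths were not used, and values are therefore compared between libraries for one gene and not between genes, except to name the genes that hold much of the reads in a summed marker list. Below, CPM is scaled with TMM factors, values are listed for mice 1 to 4 of a group, means are given ± SD over 4 mice, and logFC is the log2 fold change with its standard error (SE). A gene was called at a Benjamini-Hochberg adjusted p below 0.05 in edgeR's quasi-likelihood F-test over all 13288 rows that passed the filter.

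Promoters of some of the genes are shown first. RefSeq windows from 250 bases before to 50 bases after the transcription start were at hand for 25 of the 31 genes (30 windows). They were searched on both strands for the classical sterol regulatory element TCACNCCAC, bound by SREBPs, for CCAAT, bound by NF-Y, which works together with SREBPs, and for DR4, a direct repeat of AGGTCA with 4 bases of any kind between the copies, bound by LXRs. Of these 25 genes only Hmgcs1, whose product makes HMG-CoA in the mevalonate pathway, held a match to these letters of the sterol regulatory element, as TCACCCCAC 137 bases before the start, against 1.242% of all 32851 windows. CCAAT stood in 20 of the 30 windows, against 37.41% of all windows, and DR4 in 0 of 30, against 0.01522%. Hmgcs1 is printed for its element and was called in none of the comparisons below. Insig1, Nsdhl and Cyp51 are printed because the difference of their diet response between the tissues had the smallest adjusted p of the 21 tested genes, a choice made after their values were seen. The windows were placed on GRCm39 by exact match, run 5′ to 3′ along the gene, and show in capitals the sterol regulatory element and CCAAT, the latter as its reverse complement where it lies on the other strand.
Hmgcs1, chr13:120151637-120151936, plus strand: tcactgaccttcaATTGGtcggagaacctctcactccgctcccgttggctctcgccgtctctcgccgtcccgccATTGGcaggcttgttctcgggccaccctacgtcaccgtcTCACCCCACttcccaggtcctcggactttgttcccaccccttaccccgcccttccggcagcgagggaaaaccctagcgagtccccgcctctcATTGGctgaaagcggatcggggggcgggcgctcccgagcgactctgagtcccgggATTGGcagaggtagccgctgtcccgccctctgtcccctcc
Insig1, chr5:28276160-28276459, plus strand: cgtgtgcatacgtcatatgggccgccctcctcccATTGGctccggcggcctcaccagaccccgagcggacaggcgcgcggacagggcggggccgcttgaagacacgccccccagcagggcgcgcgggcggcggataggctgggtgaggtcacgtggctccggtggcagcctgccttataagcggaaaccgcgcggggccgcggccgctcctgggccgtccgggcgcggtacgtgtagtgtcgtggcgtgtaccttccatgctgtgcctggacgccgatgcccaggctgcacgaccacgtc
Nsdhl, chrX:71961877-71962176, plus strand: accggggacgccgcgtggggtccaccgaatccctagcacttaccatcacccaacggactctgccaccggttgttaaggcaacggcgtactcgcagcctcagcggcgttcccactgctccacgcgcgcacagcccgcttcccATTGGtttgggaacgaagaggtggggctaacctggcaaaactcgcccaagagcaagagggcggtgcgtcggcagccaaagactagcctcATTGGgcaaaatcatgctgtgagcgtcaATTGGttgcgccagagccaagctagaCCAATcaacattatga
Cyp51, chr5:4154648-4154947, minus strand: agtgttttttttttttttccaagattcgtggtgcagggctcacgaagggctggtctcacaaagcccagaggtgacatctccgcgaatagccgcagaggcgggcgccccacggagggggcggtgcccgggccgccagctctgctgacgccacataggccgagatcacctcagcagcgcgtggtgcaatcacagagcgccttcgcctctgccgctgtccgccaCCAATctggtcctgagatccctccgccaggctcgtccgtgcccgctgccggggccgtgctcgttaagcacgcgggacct
The windows of Hmgcs1 and Nsdhl each held 4 CCAAT motifs, while those of Insig1 (216 bases before the start) and Cyp51 (29 bases before the start) each held 1. Idi1 held 2 and Acat2 held 0, and Sqle was not matched to a window. The sterol regulatory element and CCAAT did not overlap in the printed windows, and a match in letters is not a measurement of binding. Variants of these motifs were not searched for, so a window without a match may still hold such a site.

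SAT from obese mice was compared with SAT from lean mice first. Among the 21 genes tested, 7 were upregulated and 1 was downregulated, where 6.21% of all rows were called higher and 4.84% lower. The upregulated genes were the SREBP2 regulator Insig1, the sterol enzymes Nsdhl, Cyp51 and Tm7sf2, the high-density lipoprotein receptor Scarb1, and the exporters Abcg1 and Abca1, with rises between 1.54-fold and 3.91-fold. The downregulated gene was Fdft1, which joins 2 farnesyl groups to squalene. The logFC was positive for 19 of the 21 genes, with a median of 0.62 against 0.0071 over all rows, and only Insig1 lay beyond a logFC of 1.5. In bulk tissue, a change in the share of a cell type and a change in RNA per cell cannot be told apart, here or below.

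**Figure D1:**
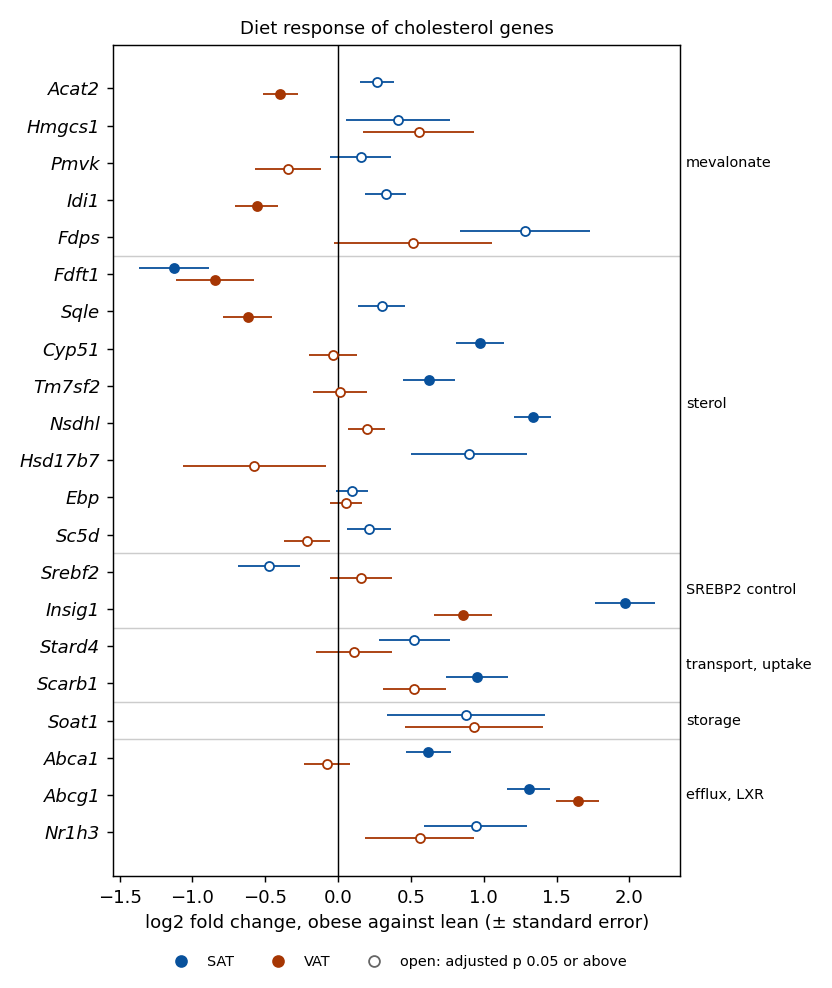
Diet response of the 21 tested genes, grouped by role. Points give the logFC of obese against lean mice in SAT (blue) and VAT (red) with bars of ± 1 SE, and filled points are called. In SAT 7 genes lie to the right and called, among them Insig1 at 1.97, while in VAT only Abcg1 and Insig1 do, and Idi1, Sqle, Acat2 and Fdft1 lie to the left and called.

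Insig1 (GRCm39 chr5:28276315-28283668, plus strand) was at 830.3, 436, 625 and 722 CPM in SAT from lean mice and at 2922, 2735, 1751 and 2826 CPM in SAT from obese mice. The lowest obese library was far above the highest lean library, and obese replicate 3 lay apart from the 3 other obese libraries. Insig1 rose 3.91-fold (logFC 1.97, SE 0.20, adjusted p = 1.66e-06).

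Nsdhl (chrX:71961712-72002129, plus strand), which removes the C4 methyl groups of the sterol ring together with partner enzymes, was at 114, 105, 123 and 139 CPM in lean SAT and at 367, 290, 246 and 311 CPM in obese SAT. Its groups were far apart, and Nsdhl rose 2.52-fold (logFC 1.34, SE 0.13, adjusted p = 4.67e-07). Cyp51 (chr5:4123416-4154751, minus strand), the lanosterol 14-demethylase, was at 121, 63.1, 78.5 and 105 CPM in lean SAT and at 210, 174, 140 and 197 CPM in obese SAT. Every obese library was above every lean one, by a smaller gap than for Nsdhl, and Cyp51 rose 1.96-fold (logFC 0.97, SE 0.16, adjusted p = 4.02e-04). Tm7sf2, a sterol reductase, was at 9.47, 7.57, 10.1 and 8.27 CPM in lean SAT and at 15.5, 14.8, 12.7 and 12.1 CPM in obese SAT. Its groups did not overlap (logFC 0.63, SE 0.18, adjusted p = 0.0266), but the call was lost without the filter (adjusted p = 0.094) and when lean mouse 2 or 4 or obese mouse 1 or 2 was left out (adjusted p from 0.0706 to 0.0844).

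Fdft1 moved the other way. Its leading row held 109, 63, 87 and 33 counts in lean SAT (8.97, 8.83, 8.26 and 6.99 CPM) and 48, 46, 56 and 38 counts in obese SAT (3.68, 4.86, 3.85 and 2.92 CPM). The obese libraries were all below the lean ones, and Fdft1 fell 2.18-fold (logFC -1.13, SE 0.24, adjusted p = 0.00394). This row is 1 of 4 transcripts of the gene in the table and carries 93.3% of the counts placed on them.

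The 4 other tested sterol enzymes did not pass the test in SAT. Sqle, the squalene epoxidase, had a logFC of 0.30 (adjusted p = 0.261), Sc5d a logFC of 0.21 (adjusted p = 0.417), Ebp a logFC of 0.096 (adjusted p = 0.64), and Hsd17b7, at 1.27 to 4.06 CPM, a logFC of 0.90 (adjusted p = 0.158). None of the 5 tested mevalonate genes passed either, although all 5 had a positive logFC. These were Acat2 (0.27), which joins acetyl-CoA units, Hmgcs1 (0.41), the kinase Pmvk (0.16), the isomerase Idi1 (0.33) and Fdps (1.29), which makes farnesyl pyrophosphate. Fdps was at 0.659, 0.561, 1.23 and 1.48 CPM in lean SAT and at 1.69, 3.38, 1.51 and 2.84 CPM in obese SAT, so its groups did not overlap, at 4 to 37 counts a library (adjusted p = 0.0664, and 0.0488 in a fit of the 8 SAT libraries alone). In all, obese SAT stood wholly apart from lean SAT for 9 of the 21 genes, the 8 called ones and Fdps. Over all rows, 9.61% had every obese SAT library above every lean one and 7.64% below.

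Scarb1, which takes up cholesterol esters from high-density lipoprotein and also lets free cholesterol leave the cell, was at 32.9, 23.3, 16.3 and 24.8 CPM in lean SAT and at 51.1, 54.5, 43.8 and 39.9 CPM in obese SAT. No obese library was below 39.9 CPM, and Scarb1 rose 1.94-fold (logFC 0.96, SE 0.21, adjusted p = 0.00503). Stard4, a carrier of sterols between membranes, had a logFC of 0.52 (adjusted p = 0.179) and was called without lean mouse 1 (adjusted p = 0.0307), and Srebf2 one of -0.47 (adjusted p = 0.167), with its other tested row at -0.11 (adjusted p = 0.879).

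Among the efflux genes, Abcg1 (chr17:31276649-31336969, plus strand), which passes sterol to high-density lipoprotein, was at 93.9, 56.2, 78.2 and 89.0 CPM in lean SAT and at 229, 204, 186 and 168 CPM in obese SAT. The groups were well apart, and Abcg1 rose 2.48-fold (logFC 1.31, SE 0.15, adjusted p = 4.79e-06). Abca1, which loads free cholesterol onto lipid-poor apolipoprotein A1, was at 22.0, 24.1, 27.2 and 14.6 CPM in lean SAT and at 37.4, 32.5, 35.4 and 30.9 CPM in obese SAT. It rose 1.54-fold with no overlap (logFC 0.62, SE 0.15, adjusted p = 0.0114), and the call was lost when lean mouse 1 and obese mouse 1, which gave the shallowest VAT libraries, were both left out (adjusted p = 0.0597). Nr1h3, the gene of LXRα, held only 6 to 45 counts a library and had a logFC of 0.95 (adjusted p = 0.0889), and its other tested row one of 0.85 (adjusted p = 0.175). With counts summed per gene symbol Nr1h3 was called higher (logFC 0.78, adjusted p = 0.0313), so that 3 of the 3 efflux genes were.

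VAT from obese mice showed another profile. Relative to VAT from lean mice, 2 of the 21 genes were upregulated, Abcg1 and Insig1, where 6.84% of all rows were called higher, and 4 were downregulated, Idi1, Sqle, Acat2 and Fdft1, where 4.08% were called lower. The logFC was positive for 12 genes and negative for 9, with a median of 0.054 against 0.018 over all rows. The lower calls rest on falls between 1.32-fold and 1.79-fold, and their number changed with single mice. It was 1 without lean mouse 2 or lean mouse 3, 0 without obese mouse 4, and 2 without the filter on low counts.

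Abcg1 was at 110, 91.2, 126 and 112 CPM in VAT from lean mice and at 343, 313, 333 and 385 CPM in VAT from obese mice. All obese libraries lay well above the highest lean one, and Abcg1 rose 3.13-fold (logFC 1.65, SE 0.15, adjusted p = 1.87e-07), the only one of the 21 beyond a logFC of 1.5. Insig1 was at 755, 348, 510.2 and 553 CPM in VAT of lean mice and at 1027, 985, 894 and 999 CPM in obese VAT. The groups did not overlap, and Insig1 rose 1.81-fold (logFC 0.86, SE 0.20, adjusted p = 0.00622).

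The 2 called mevalonate genes fell. Idi1 was at 51.0, 49.8, 54.1 and 47.6 CPM in VAT of lean mice and at 39.7, 37.6, 31.7 and 29.3 CPM in obese VAT (logFC -0.56, SE 0.15, adjusted p = 0.0148). Acat2 was at 148, 162, 168 and 154 CPM in VAT of lean mice and at 102, 122, 126 and 129 CPM in obese VAT (logFC -0.40, SE 0.12, adjusted p = 0.0313). For both genes every obese library was below every lean one. Hmgcs1, Pmvk and Fdps had logFC values of 0.55, -0.34 and 0.52, with adjusted p from 0.391 to 0.628.

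Of the sterol enzymes, Sqle was at 69.4, 53.5, 40.2 and 51.3 CPM in VAT of lean mice and at 29.8, 37.0, 34.1 and 34.9 CPM in obese VAT. It fell 1.54-fold with no overlap (logFC -0.62, SE 0.17, adjusted p = 0.0185). Fdft1 was at 1.91, 7.09, 5.13 and 4.29 CPM in VAT of lean mice and at 2.67, 3.12, 3.25 and 2.30 CPM in obese VAT. Lean replicate 1, with 3 counts, lay below all obese libraries, and the fall (logFC -0.84, SE 0.27, adjusted p = 0.0445) was not called under 9 of 15 alternatives. Nsdhl, Cyp51 and Tm7sf2, all upregulated in SAT, had logFC values of 0.20 (adjusted p = 0.374), -0.037 (adjusted p = 0.93) and 0.015 (adjusted p = 0.978) in VAT. For Nsdhl the obese libraries (150.1, 150.4, 129 and 133 CPM) still lay just above the lean ones (108, 127, 124 and 129 CPM). Over all rows, 8.35% had every obese VAT library above every lean one and 5% below, and among the 21 genes this held for 6 in the 2 directions together.

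Scarb1 had a logFC of 0.52 in VAT (adjusted p = 0.135) and was called when lean mouse 1 was left out (adjusted p = 0.0196). Abca1, at 30.6, 26.3, 31.6 and 27.2 CPM in VAT of lean mice and 24.4, 29.0, 28.4 and 26.8 CPM in obese VAT, overlapped between diets (logFC -0.074, adjusted p = 0.833). Nr1h3 had a logFC of 0.56 (adjusted p = 0.4). Soat1, the enzyme of cholesterol ester storage, held 0 to 45 counts a library and had logFC values of 0.88 in SAT (adjusted p = 0.331) and 0.93 in VAT (adjusted p = 0.238).

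Whether the diet acted alike in both depots was tested directly, as the logFC of VAT minus that of SAT with the mouse as a block. It was negative, that is, the response was lower in VAT, for 16 of the 21 genes, with a median of -0.62 against 0.031 over all rows. Called lower were 6 genes, Nsdhl, Insig1, Cyp51, Sqle, Idi1 and Acat2, where 1.29% of all rows were called lower, and 0 were called higher by edgeR (0 also at an unadjusted p below 0.05, and 0 by DESeq2), where 0.888% were. All 6 belong to synthesis and its control, which hold most of the 21 tested genes (5 mevalonate, 8 sterol and 2 control genes). Nsdhl (logFC difference -1.13, SE 0.16, adjusted p = 2.14e-04), Insig1 (-1.08, SE 0.15, adjusted p = 2.14e-04) and Cyp51 (-1.04, SE 0.19, adjusted p = 0.00334) rose in SAT and did so less, or were not called, in VAT. Sqle (-0.90, SE 0.19, adjusted p = 0.0141), Idi1 (-0.87, SE 0.19, adjusted p = 0.0148) and Acat2 (-0.65, SE 0.17, adjusted p = 0.0432) fell in VAT and had small positive values in SAT that were not called.

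**Figure D2:**
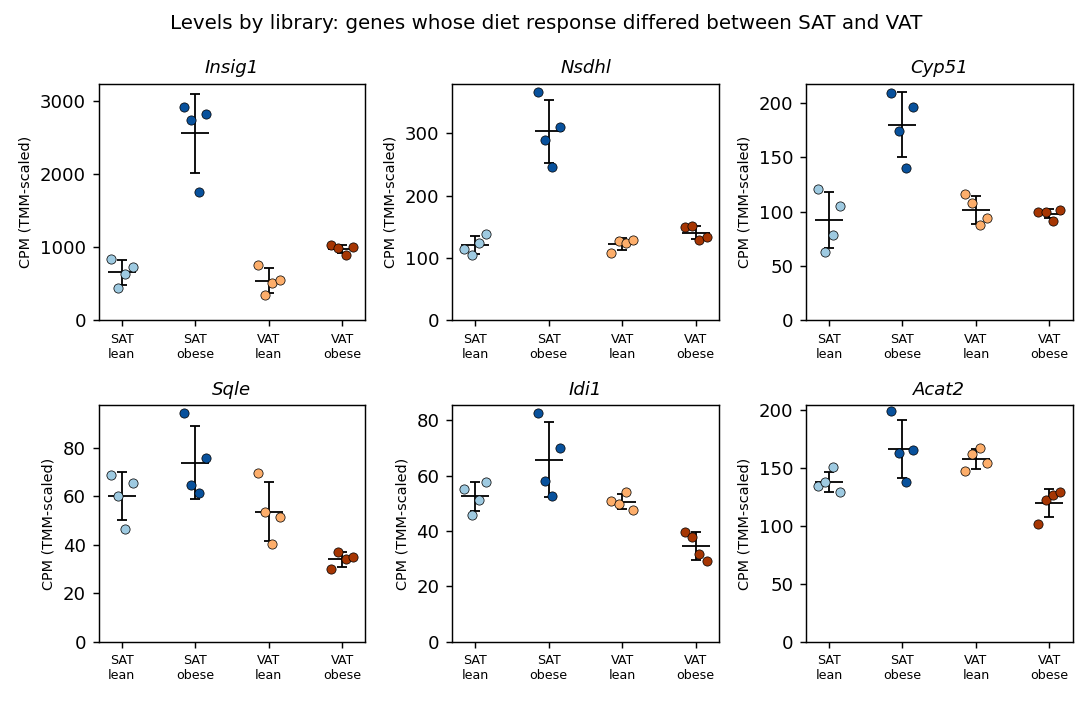
TMM-scaled CPM of the 6 genes whose diet response differed between SAT and VAT. Points are libraries (4 mice a group), and bars give the mean ± SD. For Insig1, Nsdhl and Cyp51 obese SAT stands above the 3 other groups, with means of 2559, 303 and 180.4 CPM, and for Sqle, Idi1 and Acat2 obese VAT stands lowest, with means of 33.9, 34.6 and 120 CPM.

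Among the efflux genes, the difference was 0.32 for Abcg1 (SE 0.17, adjusted p = 0.414), -0.72 for Abca1 (SE 0.22, adjusted p = 0.0825) and -0.45 for Nr1h3 (SE 0.52, adjusted p = 0.749), and none was called. DESeq2 called Abca1 (adjusted p = 0.0225) and Sc5d (adjusted p = 0.0289) lower as well. Without the block for the mouse 3 of the 6 calls were kept (Nsdhl, Cyp51 and Idi1), with adjusted p of 0.0548 for Insig1, 0.0597 for Sqle and 0.0515 for Acat2. The call of Acat2 was also lost when any of lean mice 2, 3 and 4 or obese mice 1, 2 and 4 was left out, and that of Idi1 without lean mouse 2, lean mouse 3 or obese mouse 4 (adjusted p from 0.0522 to 0.108).

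The same libraries, read as VAT against SAT within a mouse, give the levels of both depots in each diet. In lean mice 1 of the 21 genes was called higher in VAT, Abcg1, where 7.98% of all rows were, and 0 were called lower, where 6.84% were. Abcg1 was higher in VAT in 4 of 4 lean mice (logFC 0.49, SE 0.12, adjusted p = 0.00728), a call lost without lean mouse 2 (adjusted p = 0.0628) or lean mouse 3 (adjusted p = 0.0755). The median logFC of the 21 genes was 0.040, and the mean levels of Nsdhl (120 and 122 CPM in SAT and VAT) and Cyp51 (91.9 and 101 CPM) were close in the lean depots. At an unadjusted p below 0.05, edgeR gave 4 genes as higher in lean VAT (Abca1, Abcg1, Scarb1 and Tm7sf2) and 3 as lower (Fdft1, Insig1 and Sc5d). DESeq2 called 2 of the latter after adjustment, Fdft1 (adjusted p = 0.0488) and Sc5d (adjusted p = 0.0388).

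In obese mice the depots parted. In VAT 9 of the 21 genes were lower than in SAT, where 13.5% of all rows were, and 2 were higher, where 15.9% were. The 9 were Insig1, the mevalonate genes Idi1, Acat2 and Pmvk, and the sterol enzymes Nsdhl, Sqle, Cyp51, Sc5d and Hsd17b7, each lower in VAT in all 4 mice. The 2 higher genes were Abcg1 and Srebf2, each higher in VAT in 4 of 4 mice. Both were also higher in VAT in every lean mouse, where Abcg1 alone was called. The logFC was negative for 18 of the 21 genes, with a median of -0.46 against 0.042 over all rows.

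**Figure D3:**
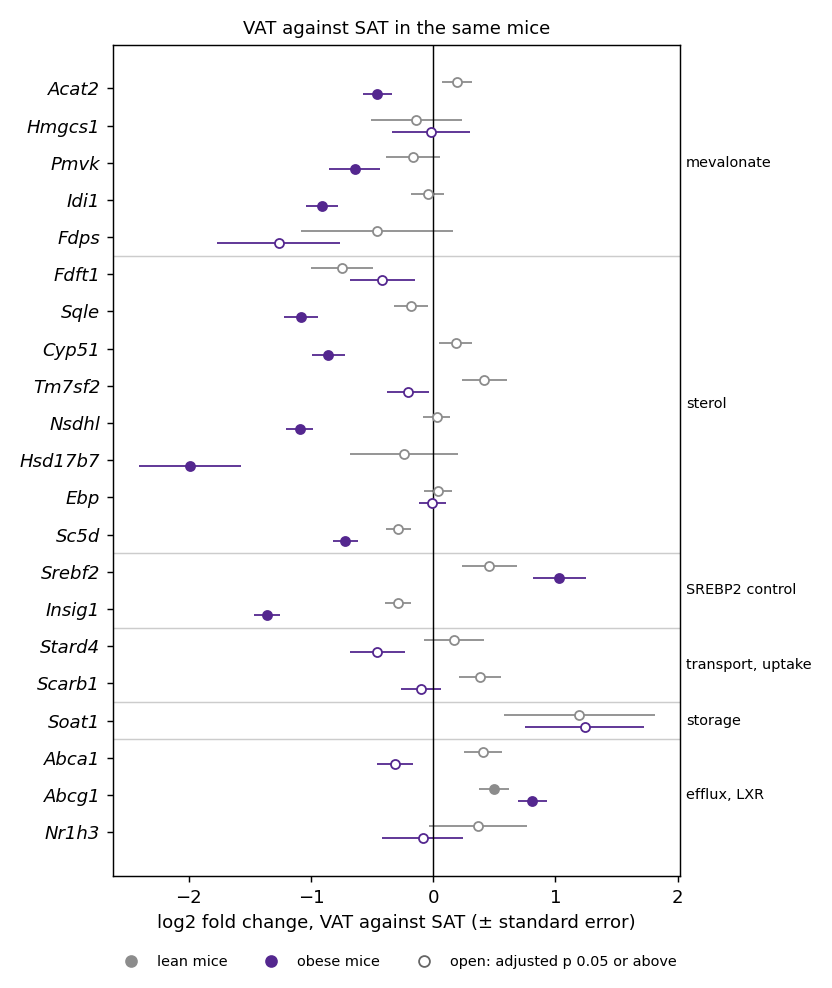
VAT against SAT of the same mice for the 21 tested genes, in lean (grey) and obese (purple) mice. Points give the logFC with bars of ± 1 SE, and filled points are called. In lean mice most points lie near 0 and only Abcg1 is called, while in obese mice 9 genes lie to the left and called and Abcg1 and Srebf2 lie to the right.

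Insig1 was 2.57-fold lower in VAT than in SAT of obese mice (logFC -1.36, SE 0.11, adjusted p = 2.08e-09), Nsdhl 2.13-fold (-1.09, SE 0.11, adjusted p = 9.96e-08), Sqle 2.11-fold (-1.08, SE 0.14, adjusted p = 3.18e-06) and Idi1 1.88-fold (-0.91, SE 0.13, adjusted p = 1.70e-05). Cyp51 was 1.81-fold lower (-0.86, SE 0.13, adjusted p = 3.25e-05) and Acat2 1.37-fold (-0.46, SE 0.12, adjusted p = 0.00547). Sc5d, the lathosterol oxidase, was at 260, 208, 184 and 189.5 CPM in obese SAT and at 149.7, 129, 124 and 107 CPM in obese VAT. Each VAT library was below each SAT library (logFC -0.72, SE 0.10, adjusted p = 1.15e-05), whereas the diet response of Sc5d was called in neither tissue.

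Hsd17b7, a 3-ketosteroid reductase of the sterol route, held 53, 31, 28 and 50 counts in obese SAT and 0, 9, 4 and 21 counts in obese VAT. The 0 came from the shallow library of obese replicate 1, and the groups did not overlap in CPM (4.06, 3.27, 1.93 and 3.84 against 0, 0.74, 0.382 and 1.79), with a logFC of -1.99 (SE 0.42, adjusted p = 9.47e-04). Pmvk was at 11.4, 10.1, 7.50 and 9.07 CPM in obese SAT and at 6.87, 5.26, 6.11 and 5.89 CPM in obese VAT. It was lower in VAT by a logFC of -0.64 (SE 0.21, adjusted p = 0.0237), a call lost without obese mouse 2 (adjusted p = 0.114) or obese mouse 4 (adjusted p = 0.0766).

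Srebf2, the gene of SREBP2 itself, went against the enzymes. Its leading row was at 5.52, 4.43, 3.85 and 3.61 CPM in obese SAT and at 7.26, 8.96, 8.50 and 9.81 CPM in obese VAT. The depots did not overlap (logFC 1.03, SE 0.22, adjusted p = 9.12e-04), and the other tested row of the gene had a logFC of 0.57 (adjusted p = 0.0861). In lean mice the leading row was at 7.57, 4.49, 5.60 and 6.36 CPM in SAT and at 10.8, 7.03, 7.16 and 8.04 CPM in VAT (logFC 0.46, not called). With counts summed per gene symbol, edgeR called Srebf2 higher in lean VAT (logFC 0.60, adjusted p = 0.0264). Its diet response was not called different between the tissues. For Abcg1 the logFC was 0.81 (SE 0.12, adjusted p = 1.72e-05). Abca1 was lower in VAT in all 4 obese mice without passing the test (logFC -0.31, adjusted p = 0.12), having been higher in VAT in all 4 lean mice (logFC 0.41, adjusted p = 0.0863).

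**Figure D4:**
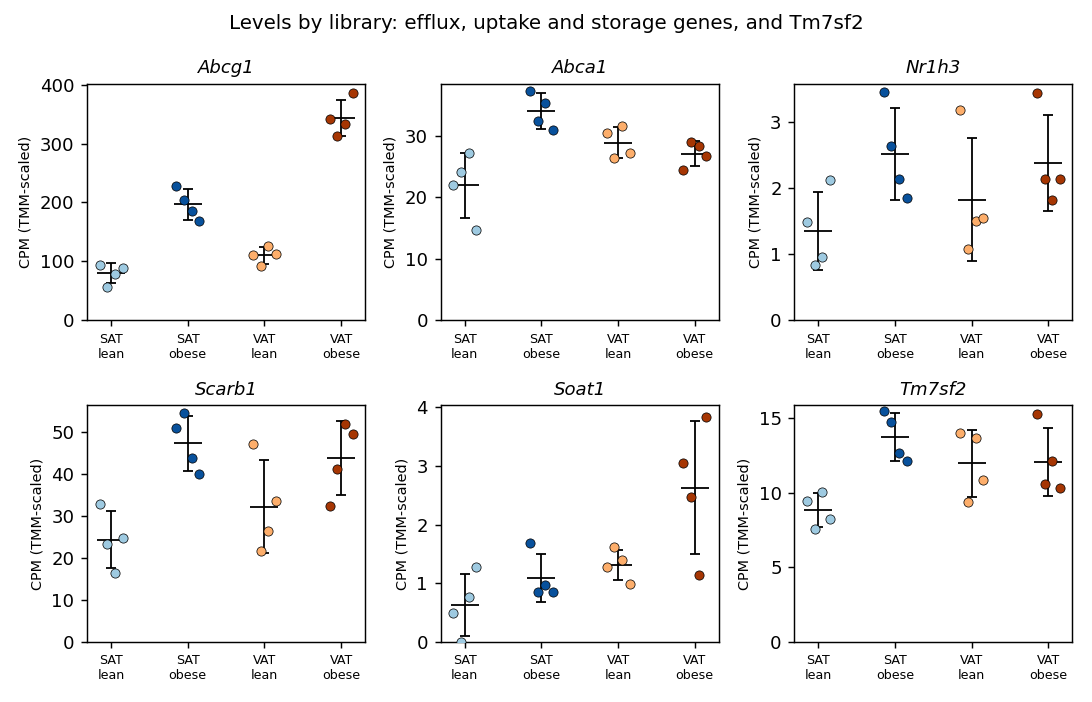
TMM-scaled CPM of the exporters Abcg1 and Abca1, of Nr1h3, and of Scarb1, Soat1 and Tm7sf2. Points are libraries (4 mice a group), and bars give the mean ± SD. Abcg1 stands highest in obese VAT, with a mean of 344 CPM against 197 CPM in obese SAT, while Abca1 stands highest in obese SAT, with a mean of 34.1 CPM.

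Synthesis and uptake genes were then set beside efflux genes. In SAT, 5 of the 17 tested synthesis and uptake genes and 2 of the 3 tested efflux genes were upregulated, against 6.21% of all rows, and 1 and 0 were downregulated, against 4.84%. The median logFC was 0.41 for the former and 0.95 for the latter, and 0.0071 over all rows. In VAT, 1 of 17 synthesis and uptake genes and 1 of 3 efflux genes were upregulated, against 6.84% of all rows, and 4 and 0 were downregulated, against 4.08%. The medians in VAT were 0.015 and 0.56, and 0.018 over all rows. With 3 genes the efflux median is the value of Nr1h3, which was called in neither tissue, and in VAT it stands between 1.65 for Abcg1 and -0.074 for Abca1. With counts summed per gene symbol the efflux medians, again those of Nr1h3, were 0.78 in SAT, where it was then called (edgeR adjusted p = 0.0313), and 0.30 in VAT. The diet response was called lower in VAT than in SAT for 6 of 17 synthesis and uptake genes (median -0.63) and for 0 of 3 efflux genes (median -0.45) by edgeR, against 1.29% of all rows (median 0.031). Among the efflux genes Abca1 alone was lower at an unadjusted p below 0.05, and it was called by DESeq2. The mean log2(CPM + 0.5) of the 13 tested synthesis enzymes was 4.51 ± 0.15 in lean SAT, 4.92 ± 0.17 in obese SAT, 4.42 ± 0.085 in lean VAT and 4.23 ± 0.040 in obese VAT. The same mean over Abca1, Abcg1 and Nr1h3 was 3.86 ± 0.17 in lean SAT, 4.76 ± 0.20 in obese SAT, 4.26 ± 0.24 in lean VAT and 4.90 ± 0.086 in obese VAT. Obese libraries thus lay above lean ones in both means in SAT, but above in efflux and below in synthesis in VAT, with no overlap of the diets in any of these cases. Of the 3 efflux genes in that mean, Abcg1 alone was called in VAT. Of the 13 enzymes, Idi1, Sqle, Acat2 and Fdft1 were called lower in VAT, calls that changed with single mice. The logFC in VAT was positive for 2 mevalonate and 3 sterol enzymes and negative for 3 and 5. These means describe genes chosen with results in view and carry no test.

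**Figure D5:**
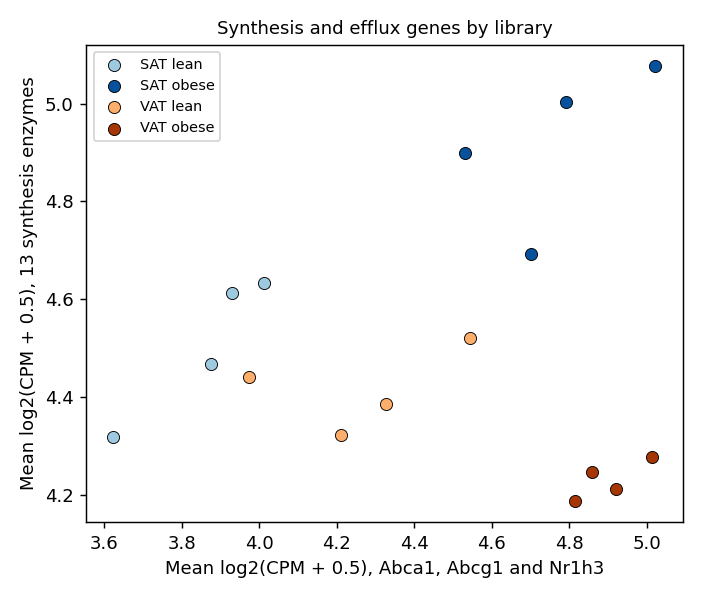
Mean log2(CPM + 0.5) of the 13 tested synthesis enzymes (vertical axis) against that of Abca1, Abcg1 and Nr1h3 (horizontal axis), with 1 point per library. Obese SAT lies at the upper right (4.69 to 5.08 for synthesis), obese VAT at the lower right (4.19 to 4.28), and the lean groups further left, apart from lean VAT replicate 1, whose efflux value (4.54) is just above that of obese SAT replicate 4 (4.53).

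A further 37 genes of the same pathways were listed beside the 31, and 23 of them had a tested leading row. In SAT 3 were upregulated and 1 was downregulated, against 6.21% and 4.84% of all rows. Lipa, the lysosomal acid lipase that frees cholesterol from lipoprotein esters, rose (logFC 1.16, SE 0.19, adjusted p = 2.59e-04), as did Npc2, which hands cholesterol on inside the lysosome (0.43, SE 0.13, adjusted p = 0.0411). Nceh1, a cholesterol ester hydrolase of macrophages, rose from 0.659, 0, 0.095 and 0 CPM in lean SAT to 2.45, 1.16, 1.44 and 1.15 CPM in obese SAT (adjusted p = 0.00439). Lcat, which esterifies cholesterol on high-density lipoprotein, fell (-0.98, SE 0.30, adjusted p = 0.0361).

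In VAT 5 of the 23 were upregulated and 2 were downregulated, against 6.84% and 4.08% of all rows. The 5 with the smallest adjusted p were Lipa (logFC 0.83, SE 0.19, adjusted p = 0.00519), Ch25h, which makes 25-hydroxycholesterol (1.91, SE 0.44, adjusted p = 0.00613), the caveolar protein Cav1 (-0.59, SE 0.14, adjusted p = 0.00674), Nceh1 (1.77, SE 0.43, adjusted p = 0.00793) and the lysosomal cholesterol exporter Npc1 (0.53, SE 0.16, adjusted p = 0.0315). Ch25h was at 0.637, 1.25, 0.962 and 0.55 CPM in VAT of lean mice and at 2.67, 4.44, 2.196 and 4.44 CPM in obese VAT, at 1 to 54 counts a library. The groups did not overlap.

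Cav1 was the only one of the 23 whose diet response differed between the tissues, with a lower value in VAT (-0.77, SE 0.16, adjusted p = 0.0118). In lean mice 4 of the 23 were called higher in VAT, Abca8a (1.92), Nceh1 (2.96), Hsd3b7 (0.93) and Cav1 (0.39), against 7.98% of all rows. The value of Nceh1 rests on 8, 0, 1 and 0 counts in lean SAT and 2, 18, 15 and 14 counts in lean VAT. Its leading row carries 63.2% of the counts of the gene. The value of Cav1 depends on the transcript, since 3 of its 4 other tested rows were called lower in lean VAT. In obese mice 6 of the 23 were called higher in VAT, against 15.9% of all rows, among them Ch25h (2.39, SE 0.46, adjusted p = 3.57e-04), Nceh1 (1.64, adjusted p = 0.00227), Lcat (1.42, adjusted p = 0.00307) and Cyp27a1 (0.96, adjusted p = 0.00448), a mitochondrial sterol hydroxylase, and 1, Cav1, was called lower (-0.37, SE 0.11, adjusted p = 0.0166), against 13.5%.

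Markers of other cell types moved with the diet and the depot. The summed CPM of 8 macrophage markers was 1331 to 2081 in lean SAT and 2002 to 2824 in obese SAT, and 2531 to 3528 in lean VAT against 5585 to 8664 in obese VAT. That of 7 markers of lipid-associated macrophages was 134 to 212 and 235 to 315 in lean and obese SAT, and 181 to 228 and 538 to 2051 in lean and obese VAT, the highest value in obese replicate 4. The 8 adipocyte markers summed to 40032 to 54549 CPM in lean SAT, 32658 to 41100.5 in obese SAT, 26837 to 35142 in lean VAT and 17924 to 26288 in obese VAT. All sums here are CPM without TMM scaling. TMM factors were 0.944 to 1.02 in lean SAT and 0.789 to 0.881 in obese SAT. Scaling would therefore raise the obese SAT sums against the lean ones. On the TMM scale the diets did not overlap in SAT for Cd68 (33.2 to 40.9 and 89.7 to 117 CPM), Csf1r, Mrc1 and C1qb. They did overlap for C1qa, Lyz2, Cd14 and Adgre1. Most of the adipocyte sum was Fabp4 and Lep, and not every member followed it: the TMM-scaled mean of Lep was 3713 CPM in lean and 4428 CPM in obese VAT. In SAT the TMM-scaled means of Plin1 (68.3 and 75.5 CPM in lean and obese mice) and Cidec (81.1 and 86.1 CPM) were slightly higher in obese mice. That of Pparg was nearly equal, and those of Adipoq, Fabp4, Lipe, Lep and Cfd were lower. Only Cfd did not overlap between the diets in SAT. The 7 mesothelial markers summed to 261 to 674 CPM in lean VAT and 318 to 428 in obese VAT but to at most 1.37 CPM in SAT, where Msln, Upk1b and Wt1 were at 0 in all libraries. T cell markers (5) summed to 9.70 to 17.5 CPM in lean VAT and 27.6 to 54.1 in obese VAT, with 2.12 to 7.64 in SAT, and B cell markers (4) to 29.6 to 275 and 178 to 349.6 CPM in lean and obese VAT, with 3.76 to 7.73 in SAT. Intestinal markers (8) summed to 13.5 to 56.6 CPM in lean VAT, highest in lean mice 2 and 4, and to 16.4 to 20.9 CPM in obese VAT, with 14.1 to 23.4 and 9.52 to 15.1 CPM in lean and obese SAT. Much of the SAT sum was Lgals4, with TMM-scaled means of 10.6 and 6.87 CPM in lean and obese SAT. Exocrine pancreatic markers (7) summed to 69.3 to 147 and 137 to 182 CPM in lean and obese SAT and to 44.1 to 65.7 and 91.2 to 99.2 CPM in lean and obese VAT, but most of this was Cela1 in every library. The leading rows of the 6 others had TMM-scaled means of at most 1.65 CPM, on at most 46 counts a group. The part of these shifts in the changes of Abcg1, Lipa, Nceh1, Ch25h and the synthesis genes was not tested.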

How the data were processed

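Poly(A) RNA from 8 SAT and 8 VAT samples of 8 mice was sequenced as paired ends. Per the labels and the study's methods, the authors trimmed the reads (Trim Galore, 0.6.6 per the labels), aligned them to GRCm39 with RefSeq annotation (HISAT2 2.2.0) and counted them with HTSeq 0.13.5. The study's methods print another version of Trim Galore. The deposited table holds raw counts and CPM (counts scaled to the library total), 16 columns each, for RefSeq transcripts. The strand setting and the handling of reads shared by transcripts are not given in the sources used here.

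Symbols were assigned by RefSeq accession (82.0% of rows), and gene positions are those of GENCODE vM39 on GRCm39. Counts were normalized by TMM and tested with edgeR 4.0.16 (quasi-likelihood F-test, R 4.3.3) for the 13288 rows whose CPM was over 1 in 3 or more of 16 libraries, with Benjamini-Hochberg adjustment over all of them. Both diet comparisons came from 1 fit of the 16 libraries, and their difference and the comparisons of depots from a fit with the mouse as a block. SAT and VAT libraries were paired by mouse, since both samples of a mouse carry 1 number. Their deviations from the group means correlated at -0.009 to 0.173 (median 0.0759, 8 pairs). Libraries of 1 number but different diets, which share no mouse, correlated about as much (-0.0942 to 0.173, median 0.0679), so the pairing rests on the design and not on these values. The biological coefficient of variation was 0.211, and the 24 pairs of libraries within groups had correlations of 0.902 to 0.981, so that no library was a copy of another. The genes and lists were chosen with earlier results of these data known. Every one of the 31 genes was to be named by its leading row, values per library were to be given for those called in any comparison, and up to 5 called genes per comparison were to be named from the further 37.

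The alternatives were RLE size factors, no filter, DESeq2 1.42.0, counts summed per gene symbol, the 8 libraries of 1 tissue, the replicate number as a block or no block, and each mouse left out in turn. Leaving out both mice with the shallowest libraries was added after seeing the data. The tests were checked on simulated data first. Tables and figures were made with pandas 2.3.3 and matplotlib 3.10.9 in Python 3.11.15. Some genes of this pathway are not reported here.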

Additional observations from a re-analysis of the deposited data

Results flagged for a closer look

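The diet response differed between VAT and SAT for 6 genes, in the test of the difference itself with the mouse as a block. The logFC of VAT minus that of SAT was -1.13 for Nsdhl, -1.08 for Insig1, -1.04 for Cyp51, -0.90 for Sqle, -0.87 for Idi1 and -0.65 for Acat2.

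In 5 of 84 sets of 4 libraries (1 gene in 1 group), a single library lay far from the other 3 by Dixon's ratio at the 95% level, and chance alone flags about 5% of sets. Insig1 in obese SAT was at 1751 CPM in replicate 3 and between 2735 and 2922 CPM in the others. Ebp in lean VAT was at 94.0 CPM in replicate 3 and between 78.6 and 80.3 CPM in the others. The remaining 3 were at few counts. Fdps in obese VAT was at 2.29 CPM in replicate 1 (others 0.575 to 0.859), Hsd17b7 in lean VAT at 2.55 CPM in replicate 1 (others 1.13 to 1.28), and Soat1 in obese SAT at 1.69 CPM in replicate 1 (others 0.845 to 0.963).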

How the results depend on the processing

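No called gene changed direction under any alternative run. Of the called values recomputed, 421 kept their call and 41 lost it, most often Fdft1 in VAT (9 of 15 alternatives) and Acat2 in the difference between tissues (8 of 14). The number of genes called lower in VAT (4) was 2 with no filter and 0 to 4 as each mouse was left out. The number whose response was lower in VAT than in SAT (6) was 3 with no replicate block and 4 to 6 as each mouse was left out. In lean mice the genes lower in VAT (0) numbered 1 with RLE size factors, 2 with DESeq2, 1 with summed counts and 0 to 1 with a mouse left out (1, Insig1, without obese mouse 3). Those higher in VAT (1) numbered 2 with summed counts, which added Srebf2, and 0 to 1 with a mouse left out. The efflux medians with summed counts were 0.78 in SAT and 0.30 in VAT. The cause of these shifts was not tested. The replicate number as a block left 7 higher and 1 lower in SAT and 2 higher and 4 lower in VAT, and without the mouse as a block obese mice had 10 genes lower and 3 higher in VAT, which added Fdps (adjusted p = 0.0346) and Soat1 (adjusted p = 0.0457). Dropping that block ended 3 calls of the difference, named above, and no other. Leaving out both mice with the shallowest libraries, a choice made after seeing the data, gave 6 higher and 1 lower in SAT, 3 higher and 4 lower in VAT, and 5 lower in the difference. Depth limits most what can be said of Fdps, Hsd17b7, Soat1, Nr1h3 and Hmgcs1, which held under 60 counts in every library.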
